A study of Homo sapiens with 24 samples.

Results

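The genes described here are 44 protein-coding genes that build and regulate cholesterol and fatty acids, taken by symbol from the count tables of 4 human cancer cell lines. The 44 symbols were chosen by their place in these pathways, but with earlier results of these data known. Each was found as 1 of the 61533 genes in every table. They fall into 5 regulators of the pathway, 2 sterol transporters, 18 enzymes of the sterol branch, 17 genes of the fatty acid branch and 2 enzymes of triglyceride synthesis. Of the 44, 42 had enough counts to be tested in each line. The exceptions were NPC1L1, an intestinal sterol uptake protein, and THRSP, a lipogenic regulator, whose levels were at most 0.11 and 0.486 TPM (transcript level corrected for gene length and scaled to 1 total in every library) in any library.

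RNA was sequenced from Cal27, A375, Fadu and Hth83 cells, labelled wild type, that had been seeded in plates and either left untreated (0 s) or exposed for 60 s to Piezo-CAP, with 24 h given as the treatment time. Piezo-CAP is plasma from a piezoelectric element, meaning ionised gas that remains cool enough to touch cells. With 3 libraries for each treatment in each line, the 24 libraries form 8 groups, and every comparison sets plasma against no plasma within 1 line. Cal27, A375 and Hth83 grew in DMEM and Fadu in MEM, so medium and line cannot be told apart. Whether the 3 libraries of a group are separate cultures is not stated, so the p-values speak only of the spread among these libraries, which may be technical. The series title gives the aim as making head and neck cancer more sensitive to chemotherapy and checkpoint blockade.

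Each line is a single culture model, and the labels call all 4 head and neck cancer cells. Cal27 and Fadu are usually described as squamous carcinoma lines of the tongue and hypopharynx, A375 as a melanoma line and Hth83 as an anaplastic thyroid carcinoma line. The squamous regulator TP63 stood at 341, 451 and 390 CPM (counts scaled by library size and by TMM, the trimmed mean of M values) in untreated Cal27, Fadu and Hth83 and at 0.0131 CPM in A375. SOX10, a melanocyte lineage factor, was at 1120.1 CPM in untreated A375 and at most 0.0628 CPM in the other lines. In Hth83 the thyroid factor PAX8 was at 128 CPM while thyroglobulin (TG) was at 0.0409 CPM. Library totals ran from 27882600 to 49514300 counts, and libraries of a group differed by more than counting error (chi-square per degree of freedom 3.03 to 9.47). All 37 mitochondrial genes were at 0 counts in every library, so mitochondrial share could not be used as a sign of RNA quality.

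Cells make cholesterol from acetyl-CoA through the mevalonate pathway, squalene and lanosterol, and make fatty acids from the same precursor through malonyl-CoA, followed by elongation, desaturation and activation with coenzyme A. Both branches are transcribed under the sterol regulatory element-binding proteins (SREBPs), which the genes SREBF1 and SREBF2 encode. When membrane sterol is low, SCAP escorts SREBPs from the endoplasmic reticulum to the Golgi for cleavage, and when it is high INSIG proteins retain them. SREBP-2 is best known for sterol genes and SREBP-1c for fatty acid genes, usually together with the factor NF-Y bound nearby.

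Promoter sequences are shown first because many of the genes moved together. The promoter set used here (RefSeq, GRCh38.p14) gave 54 windows for 38 of the 44 genes. Each window runs from 250 bases before to 50 after a start site. This set held no window for ACAT2, DGAT1, DGAT2, FASN, FDFT1 and SQLE, which is a gap of the set used. The windows were searched on both strands for TCACNCCAC (a sterol regulatory element, where SREBPs bind), CCAAT (the NF-Y box), GGGCGG (the GC box) and CACGTG (an E-box). None of the 4 motifs contains another, and a window can hold several. TCACNCCAC was found in 2 of the 54 windows (3.7%), those of SREBF2 and the acyl-CoA synthetase gene ACSL1, against 1.13% of all 35116 windows. CCAAT was found in 63.0% of the windows of the 38 genes, against 34.6% of all windows, with 75.0% in the sterol branch and 57.7% in the fatty acid branch. GGGCGG was found in 79.6% against 45.0%, and CACGTG in 11.1% against 7.26%. The set of all windows was not limited to protein-coding or tested genes, so it is not matched to the 38 genes. A match is a run of letters and not a measured binding site.

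The 250 bases before the start site are printed 5′ to 3′ for 6 genes on which the results turn, with matches to TCACNCCAC or CCAAT on either strand in capitals: the regulators SREBF2 and INSIG1, LSS and SCD as the enzymes with the largest rise of the sterol branch in Hth83 and the largest fall in Fadu, and ELOVL6 and TM7SF2, which moved 1 way in all 4 lines.
SREBF2 chr22:41832855-41833104, plus strand: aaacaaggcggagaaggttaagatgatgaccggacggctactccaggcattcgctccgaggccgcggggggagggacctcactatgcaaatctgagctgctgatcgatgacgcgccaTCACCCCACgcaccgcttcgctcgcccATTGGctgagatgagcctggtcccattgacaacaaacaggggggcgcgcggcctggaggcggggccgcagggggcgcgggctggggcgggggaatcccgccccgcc
INSIG1 chr7:155297628-155297877, plus strand: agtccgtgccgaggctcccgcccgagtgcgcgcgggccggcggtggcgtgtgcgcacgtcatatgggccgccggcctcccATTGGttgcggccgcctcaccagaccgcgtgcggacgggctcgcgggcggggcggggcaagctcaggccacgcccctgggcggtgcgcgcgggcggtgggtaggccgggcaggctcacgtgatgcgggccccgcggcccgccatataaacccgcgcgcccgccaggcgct
LSS chr21:46228775-46229024, minus strand: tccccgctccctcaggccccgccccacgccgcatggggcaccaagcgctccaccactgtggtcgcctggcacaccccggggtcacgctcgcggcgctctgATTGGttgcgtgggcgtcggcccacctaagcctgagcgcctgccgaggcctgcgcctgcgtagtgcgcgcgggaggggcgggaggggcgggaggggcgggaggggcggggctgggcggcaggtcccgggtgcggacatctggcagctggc
SCD chr10:100346983-100347232, plus strand: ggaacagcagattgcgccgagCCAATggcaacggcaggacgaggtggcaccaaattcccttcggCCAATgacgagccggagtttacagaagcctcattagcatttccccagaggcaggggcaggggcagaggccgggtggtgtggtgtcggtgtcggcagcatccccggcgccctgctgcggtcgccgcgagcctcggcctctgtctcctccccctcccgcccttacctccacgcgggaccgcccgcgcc
ELOVL6 chr4:110198616-110198865, minus strand: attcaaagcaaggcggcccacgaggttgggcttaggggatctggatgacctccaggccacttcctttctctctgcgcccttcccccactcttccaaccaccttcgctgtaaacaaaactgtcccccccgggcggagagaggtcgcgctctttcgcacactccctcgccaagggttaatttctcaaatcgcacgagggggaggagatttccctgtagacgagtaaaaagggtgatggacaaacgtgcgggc
TM7SF2 chr11:65111622-65111871, plus strand: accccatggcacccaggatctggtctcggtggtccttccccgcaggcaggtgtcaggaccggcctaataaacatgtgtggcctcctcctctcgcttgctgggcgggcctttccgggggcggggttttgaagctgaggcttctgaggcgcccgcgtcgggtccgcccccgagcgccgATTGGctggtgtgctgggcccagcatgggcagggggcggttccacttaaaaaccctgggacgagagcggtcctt
SREBF2 has the sterol regulatory element at -133 and an NF-Y box at -106, both counted from the start site. INSIG1 (-170), LSS (-150) and TM7SF2 (-74) each have 1 NF-Y box, SCD has 2 (-229 and -186), and ELOVL6 has neither motif in the window.

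Before treatment the lines differed widely in these genes, on the TPM scale, which corrects for gene length and is set within each library. Fadu held the highest mean level of 13 of the 42 tested genes, among them SREBF1, SREBF2, HMGCS1, SQLE, ACACA and FASN. A375 and Hth83 were highest for 12 genes each and Cal27 for 5. SREBF2 was at 97.9 ± 0.652 TPM (mean ± SD, 3 libraries) in Fadu, 43.5 ± 0.763 in A375, 41.0 ± 0.923 in Hth83 and 33.2 ± 1.005 in Cal27, and no 2 lines overlapped. SCD, the desaturase that makes oleate, ranged from 77.8 ± 2.57 TPM in Cal27 to 981 ± 17.7 TPM in Hth83, a ratio of 12.6. CYP51A1, the lanosterol demethylase, was at most 1.497 TPM in any untreated line and has 3 named pseudogenes, so its values are uncertain.

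**Figure D1:**
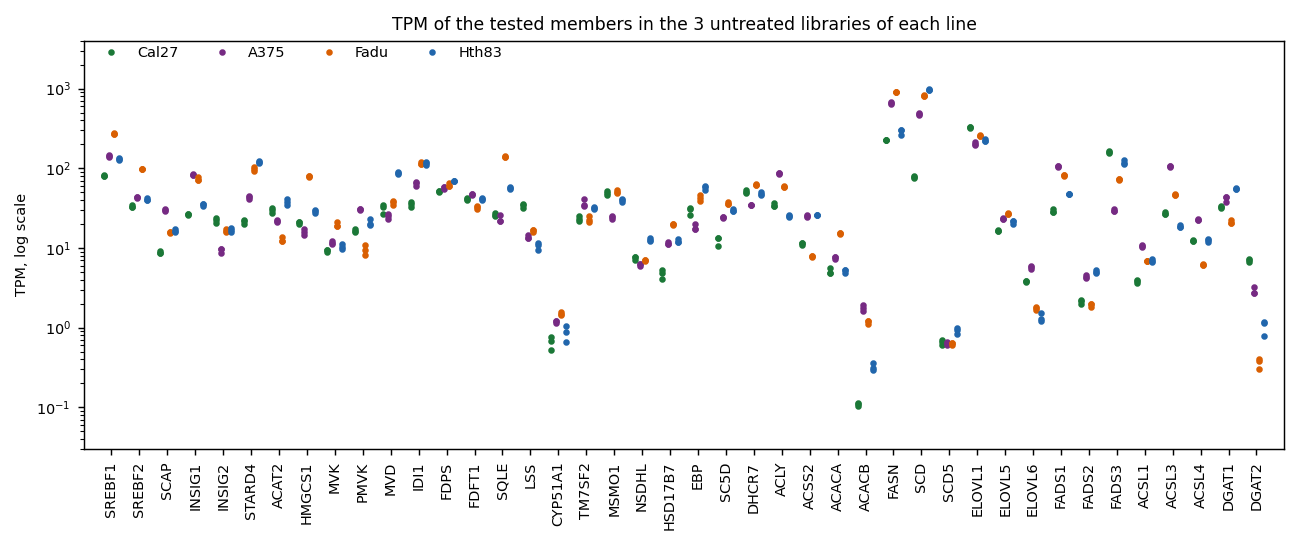
TPM (log scale) of the 42 tested genes in the 3 untreated libraries of each line, 1 point a library and 1 color a line, with the genes in pathway order from regulators to triglyceride synthesis. SCD and FASN reach the highest levels and ACACB, SCD5 and CYP51A1 the lowest, and SREBF1, SREBF2, HMGCS1 and SQLE are highest in Fadu.

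After plasma the genes fell in Fadu, rose on balance in Hth83, and were split in Cal27 and A375. Of the 42 tested, 4 rose and 32 fell in Fadu, where 26.3% and 27% of all genes tested were called higher and lower. In Hth83 21 rose and 10 fell, against 25.9% and 24.2% of all genes. Cal27 had 14 higher and 13 lower, against 21.9% and 23.2%, and A375 had 12 higher and 12 lower, against 25.7% and 24.8%. The median log2 fold change over the 42 was -0.64 in Fadu, 0.26 in Hth83, -0.02 in Cal27 and -0.02 in A375, beside medians of all genes within 0.0211 of 0. Counted in either direction, 36 were called in Fadu (53.3% of all genes), 31 in Hth83 (50.1%), 27 in Cal27 (45.1%) and 24 in A375 (50.5%). The untreated and treated libraries did not overlap for 37 genes in Fadu (58.6% of all genes), 31 in Hth83 (57.2%), 29 in A375 (57.9%) and 27 in Cal27 (52.7%). Calls rest on the quasi-likelihood test of edgeR with Benjamini-Hochberg adjustment over all genes of a line, at an adjusted p under 0.05. The split in Cal27 and A375 depends on the scale: it was 20 higher and 4 lower in Cal27 and 7 higher and 10 lower in A375 on log2(TPM + 1), and 15 and 8, and 11 and 17, when only library size was used. In Cal27 the TPM scale also raised the median of all genes, by 0.20.

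**Figure D2:**
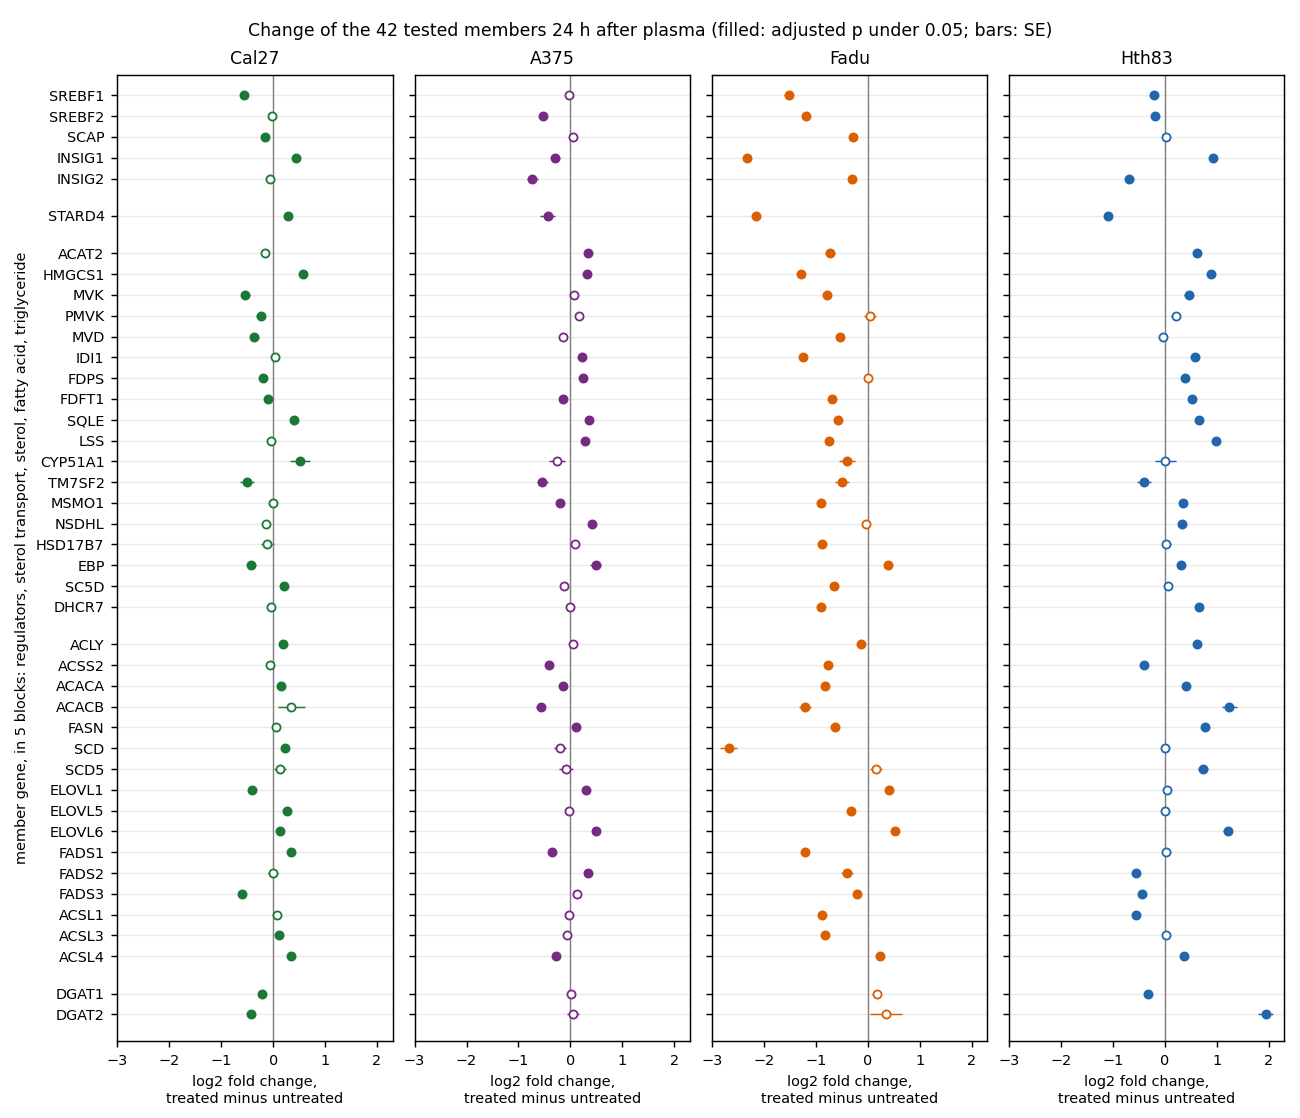
Log2 fold change (treated minus untreated) of the 42 tested genes in each line from edgeR, with bars for the SE and filled points for an adjusted p under 0.05. Most points of Fadu lie left of 0, those of the sterol block in Hth83 lie mostly right of 0, and Cal27 and A375 are mixed; on the TPM scale the sterol block of Cal27 moves from a median of -0.10 to 0.12.

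The regulators fell together in Fadu. All 5 were lower there (median -1.19), against 3 lower and 1 higher in Hth83, 3 lower in A375, and 2 lower and 1 higher in Cal27. SREBF1 (ENSG00000072310.18, chr17:17810399-17837002, minus strand, GRCh38), which encodes SREBP-1, measured 560.2, 542 and 536 CPM in the untreated and 214, 172 and 185 CPM in the treated Fadu libraries. In Cal27 SREBF1 was at 189, 189.8 and 187 CPM untreated and 125, 127 and 130.2 CPM treated. Both lines had every treated library below every untreated one. Hth83 gave 260.5, 259.6 and 253 CPM untreated and 239, 237 and 196 CPM treated, with the third treated library the lowest, and the groups did not overlap. A375 gave 277, 266 and 263 and 246, 273 and 269 CPM, and these groups overlapped. The log2 fold change of SREBF1 was -1.52 ± 0.09 in Fadu (adjusted p = 4.11e-05), -0.57 ± 0.04 in Cal27 (adjusted p = 1.6e-13), -0.20 ± 0.06 in Hth83 (adjusted p = 0.00539) and -0.03 ± 0.04 in A375 (adjusted p = 0.502). The Hth83 call was lost on the TPM scales (adjusted p = 0.246 to 0.382).

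SREBF2 (ENSG00000198911.12, chr22:41833079-41907308, plus strand) encodes SREBP-2, the main activator of sterol genes. It measured 551, 549 and 545 CPM in the untreated and 262, 228 and 233 CPM in the treated Fadu libraries, a fall to 0.439 of the untreated level. In A375 it was at 226, 227 and 224 CPM untreated and 138, 164 and 165 CPM treated, with the first treated library lowest. Hth83 moved less, from 222, 225 and 222 to 201, 201 and 184 CPM. The groups were separate in those 3 lines and overlapped in Cal27, at 212, 213 and 221 and 211, 214 and 212 CPM. The log2 fold change of SREBF2 was -1.19 ± 0.04 in Fadu (adjusted p = 4.22e-34), -0.53 ± 0.05 in A375 (adjusted p = 2.94e-09) and -0.19 ± 0.05 in Hth83 (adjusted p = 0.000906), the last not called on the TPM scales (adjusted p = 0.0918 to 0.157). In Cal27 it was -0.02 ± 0.04 (adjusted p = 0.669), and turned to 0.21 on the TPM scales. Treated Fadu, at 43.5 ± 2.82 TPM, was no longer apart from the untreated level of A375.

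INSIG1 (ENSG00000186480.13, chr7:155297776-155310235, plus strand) encodes the retention protein and is itself a target of SREBPs. It fell in 2 lines and rose in 2. INSIG1 measured 67.0, 72.4 and 67.9 CPM in the untreated and 17.0, 11.9 and 12.8 CPM in the treated Fadu libraries. Hth83 went the other way, from 33.0, 32.4 and 30.6 to 61.6, 69.1 and 52.2 CPM. Each treated library of Fadu was below, and each of Hth83 above, all untreated ones of its line. INSIG1 in Cal27 was at 29.3, 28.9 and 29.1 CPM untreated and 38.9, 41.962 and 37.5 CPM treated, and in A375 at 72.5, 70.8 and 73.8 and 48.5, 63.3 and 64.8 CPM. Again the groups did not overlap. The log2 fold change of INSIG1 was -2.32 ± 0.09 in Fadu (adjusted p = 2.19e-18), 0.93 ± 0.08 in Hth83 (adjusted p = 1.88e-10), 0.44 ± 0.07 in Cal27 (adjusted p = 1.16e-06) and -0.29 ± 0.09 in A375 (adjusted p = 0.0212). The A375 call was lost when any of the 3 untreated libraries was left out (adjusted p = 0.0805, 0.0889 and 0.0872). INSIG2, its paralog, fell in A375 (-0.73), Hth83 (-0.68) and Fadu (-0.31) and was not called in Cal27. SCAP, the escort protein, fell by 0.27 on the log2 scale in Fadu and by 0.17 in Cal27, where it turned to 0.06 on log2(TPM + 1), and was not called in A375 or Hth83.

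STARD4, which carries cholesterol between membranes, was named after its values were seen. It measured 116, 127 and 122 CPM in the untreated and 31.1, 27.5 and 24.2 CPM in the treated Fadu libraries. In Hth83 it went from 148, 139 and 151 to 66.4, 76.2 and 62.4 CPM. Both falls left the groups apart, at a log2 fold change of -2.14 ± 0.06 in Fadu (adjusted p = 2.12e-30) and -1.10 ± 0.06 in Hth83 (adjusted p = 6.97e-15). In Cal27 it rose (0.28, adjusted p = 0.00108). The fall in A375 (-0.43, adjusted p = 0.0469) held its call in 10 of 18 alternatives, over which the adjusted p ran from 4.67e-08 to 0.166. STARD4 overlaps the antisense gene STARD4-AS1, and the sources used here do not state whether counting used strand.

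**Figure D3:**
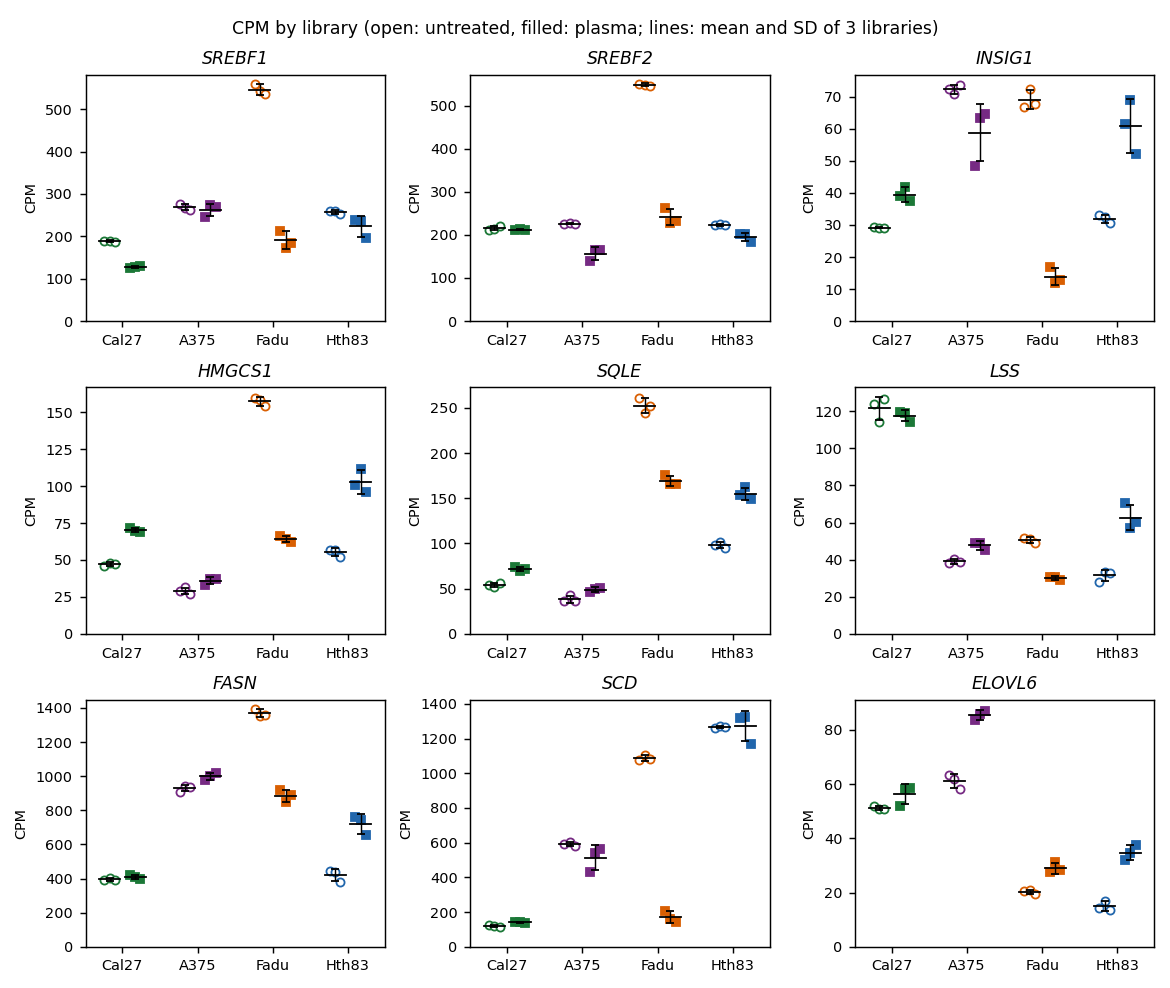
CPM of SREBF1, SREBF2, INSIG1, HMGCS1, SQLE, LSS, FASN, SCD and ELOVL6 in every library, open for untreated and filled for treated, with lines for the mean and SD of 3 libraries and every axis starting at 0. In Fadu the treated libraries lie below the untreated ones for all of these but ELOVL6, and in Hth83 INSIG1, HMGCS1, SQLE, LSS, FASN and ELOVL6 lie above.

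In Fadu 14 of the 18 sterol enzymes fell (against 27% of all genes), 1 rose (against 26.3%) and 3 were not called (median -0.67). HMGCS1 (ENSG00000112972.15, chr5:43289395-43313512, minus strand), which condenses acetyl-CoA and acetoacetyl-CoA at the entry of the mevalonate pathway, measured 159.6, 158 and 154 CPM in the untreated and 66.2, 64.2 and 62.5 CPM in the treated Fadu libraries. IDI1, the isomerase of isopentenyl diphosphate, measured 85.6, 88.5 and 84.3 CPM in the untreated and 35.7, 37.4 and 35.3 CPM in the treated Fadu libraries. MSMO1, a methylsterol oxidase after lanosterol, measured 59.1, 61.3 and 57.6 CPM in the untreated and 30.9, 35.0 and 29.008 CPM in the treated Fadu libraries. In each case all treated libraries lay below all untreated ones. The log2 fold changes were -1.29 ± 0.04 for HMGCS1 (adjusted p = 3.05e-46), -1.25 ± 0.05 for IDI1 (adjusted p = 5.2e-39) and -0.91 ± 0.06 for MSMO1 (adjusted p = 1.15e-24). SQLE, the squalene epoxidase and a rate-controlling step, went from 261, 245 and 252 to 175, 166 and 166 CPM, a log2 fold change of -0.58 ± 0.04 (adjusted p = 9.64e-27). LSS, the lanosterol synthase, went from 51.8, 51.3 and 48.9 to 30.8, 30.6 and 29.1 CPM (-0.75 ± 0.06, adjusted p = 1.39e-19). MVK, mevalonate kinase, went from 39.8, 35.7 and 35.6 to 22.3, 20.5 and 21.6 CPM (-0.79 ± 0.07, adjusted p = 4.33e-17). None of these groups overlapped. The other genes that fell were ACAT2, MVD, FDFT1, CYP51A1, TM7SF2, HSD17B7, SC5D and DHCR7, at -0.40 to -0.89, with the CYP51A1 call kept in 11 of 18 alternatives. The gene that rose was EBP, a sterol isomerase, at 20.2, 24.3 and 21.9 and 30.8, 27.6 and 28.7 CPM (0.39 ± 0.08, adjusted p = 7.26e-06). PMVK (0.05), FDPS (0.01) and NSDHL (-0.03) were not called.

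Markers of squamous epithelium moved in Fadu too: 6 of 8 fell and 2 rose, and their summed level was 11355 to 11726 TPM in the untreated and 5205 to 5741 TPM in the treated libraries. Among other lists, the summed level of 6 leukocyte genes was 38.8 to 53.1 TPM untreated and 45.3 to 53.5 TPM treated, with the defining gene PTPRC at 0 CPM when untreated. That of 7 thyroid genes was 44.9 to 49.5 TPM untreated and 56.0 to 65.5 TPM treated. Fewer cells of a kind and less RNA per cell cannot be told apart in such bulk libraries. The part of the squamous change in the fall of the sterol and fatty acid genes was not tested.

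In Hth83 12 of the 18 sterol enzymes rose (against 25.9% of all genes), 1 fell (against 24.2%) and 5 were not called (median 0.36). LSS (ENSG00000160285.15, chr21:46188141-46228824, minus strand) measured 28.1, 33.6 and 33.1 CPM in the untreated and 70.5, 57.3 and 60.3 CPM in the treated Hth83 libraries. HMGCS1 measured 56.9, 56.6 and 52.1 CPM in the untreated and 101, 112 and 95.9 CPM in the treated Hth83 libraries. SQLE measured 98.3, 101 and 95.3 CPM in the untreated and 154, 162 and 149 CPM in the treated Hth83 libraries. Every treated library was above every untreated one for these 3 genes. The log2 fold changes were 0.99 ± 0.08 for LSS (adjusted p = 3.97e-11), 0.89 ± 0.06 for HMGCS1 (adjusted p = 1.4e-13) and 0.66 ± 0.05 for SQLE (adjusted p = 2.02e-12). The other genes that rose were ACAT2, MVK, IDI1, FDPS, FDFT1, MSMO1, NSDHL, EBP and DHCR7, which act from the first condensation to the last reduction, at 0.31 to 0.66. TM7SF2 fell, and PMVK, MVD, CYP51A1, HSD17B7 and SC5D were not called. The summed level of the branch was 692 to 720.0 TPM in the untreated and 949.7 to 1017 TPM in the treated Hth83 libraries, and in Fadu it was 761 to 777 TPM in the untreated and 494 to 511 TPM in the treated libraries. In Hth83 the squamous list had 6 genes lower and 2 higher, with a summed level of 3983 to 4140 TPM untreated and 3718 to 3986 TPM treated, and its part in the rise was not tested.

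The sterol branch was split in the other two lines. In A375 8 enzymes rose (against 25.7% of all genes), 3 fell (against 24.8%) and 7 were not called (median 0.12). EBP measured 9.68, 8.30 and 8.44 CPM in the untreated and 12.8, 11.7 and 12.6 CPM in the treated A375 libraries. NSDHL, a dehydrogenase that helps to remove methyl groups from sterols, measured 17.3, 16.6 and 16.4 CPM in the untreated and 23.9, 20.6 and 22.5 CPM in the treated A375 libraries. Neither pair of groups overlapped, and the log2 fold changes were 0.48 ± 0.10 for EBP (adjusted p = 0.000181) and 0.41 ± 0.08 for NSDHL (adjusted p = 6.05e-05). HMGCS1 rose from 28.7, 31.4 and 26.9 to 33.3, 37.1 and 37.4 CPM (0.31 ± 0.07, adjusted p = 0.000279) and SQLE from 36.2, 43.0 and 36.2 to 45.9, 49.8 and 50.9 CPM (0.35 ± 0.06, adjusted p = 3.17e-05). LSS, ACAT2, IDI1 and FDPS also rose, at 0.22 to 0.33. TM7SF2, FDFT1 and MSMO1 fell. The MSMO1 call was lost without untreated library 1 or 3 or treated library 1 or 2 (adjusted p = 0.110, 0.0858, 0.0768 and 0.0674). On the log2(TPM + 1) scale the calls of HMGCS1, SQLE and IDI1 were lost (adjusted p = 0.123, 0.101 and 0.148). In A375 the summed level of the melanocyte markers was 949 to 978 TPM untreated and 782 to 814 TPM treated, with 1 of 5 tested lower. The squamous markers summed to 21.4 to 22.3 and 44.0 to 48.6 TPM, and both tested leukocyte markers rose. The part of these markers in the A375 values was not tested.

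In Cal27 4 sterol enzymes rose (against 21.9% of all genes), 7 fell (against 23.2%) and 7 were not called. Their rises lie near the share of all 17371 genes tested. The median was -0.10, and 0.12 to 0.13 on the 3 TPM fits. HMGCS1 rose and measured 45.6, 48.1 and 47.5 CPM in the untreated and 71.6, 69.8 and 69.1 CPM in the treated Cal27 libraries. SQLE rose from 54.4, 52.4 and 56.8 to 73.6, 69.6 and 71.5 CPM. These groups did not overlap, at log2 fold changes of 0.58 ± 0.05 for HMGCS1 (adjusted p = 9.08e-11) and 0.39 ± 0.05 for SQLE (adjusted p = 1.86e-07). MVK fell and measured 20.7, 20.7 and 19.3 CPM in the untreated and 15.009, 13.1 and 13.7 CPM in the treated Cal27 libraries. EBP fell from 18.7, 19.6 and 15.8 to 13.3, 13.7 and 13.4 CPM. The groups of both were separate, at -0.54 ± 0.09 for MVK (adjusted p = 5.01e-06) and -0.42 ± 0.09 for EBP (adjusted p = 0.00037). CYP51A1 and SC5D also rose, and PMVK, MVD, TM7SF2, FDPS and FDFT1 also fell, of which FDPS (0.03) and FDFT1 (0.13) turned upward on log2(TPM + 1). Several of these calls were fragile: FDFT1 kept its call in 3 of 18 alternatives (adjusted p from 0.00661 to 0.773), PMVK in 11 of 18, FDPS in 12 of 18, and CYP51A1 and SC5D in 13 of 18 each. EBP and MVD kept theirs in 15 of 18 each. Both were lost on the 3 TPM fits (adjusted p = 0.148 to 0.259 for EBP and 0.458 to 0.535 for MVD). MVK shares exons with the opposite-strand gene MMAB. The squamous markers of Cal27 had 6 genes lower and 1 higher, with a summed level of 1321 to 1348 TPM untreated and 829 to 864 TPM treated, and their part in these changes was not tested.

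TM7SF2, a sterol reductase after lanosterol (chr11:65111845-65116384, plus strand), was the 1 gene of the 44 that fell in every line. It measured 10.996, 10.7 and 13.0 CPM in the untreated and 7.38, 7.59 and 8.78 CPM in the treated A375 libraries. In Cal27 it went from 10.0, 9.31 and 8.61 to 6.40, 7.602 and 5.63 CPM, and in Fadu from 7.67, 7.21 and 8.74 to 5.80, 4.70 and 6.19 CPM. Hth83 gave 10.5, 10.2 and 10.9 and 9.81, 6.98 and 7.12 CPM. The treated libraries lay below the untreated ones in each line. The log2 fold change was -0.54 ± 0.11 in A375 (adjusted p = 0.000127), -0.51 ± 0.13 in Cal27 (adjusted p = 0.00165), -0.50 ± 0.14 in Fadu (adjusted p = 0.000991) and -0.40 ± 0.13 in Hth83 (adjusted p = 0.0101), and its difference between lines did not pass the test (interaction adjusted p = 0.913). Of all genes tested in the 4 lines 1.29% fell in each. The Hth83 call was lost without the second treated library (adjusted p = 0.0503) and on the TPM scales, as was that of Cal27, and that of Fadu on unfiltered log2(TPM + 1) (adjusted p = 0.0621), and the alternatives gave an adjusted p of 0.000887 to 0.197 in Hth83. TM7SF2 shares exons with VPS51 on the same strand, so its reads are uncertain.

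In the fatty acid branch of Fadu 12 of the 16 tested genes fell and 3 rose, against 27% and 26.3% of all genes. A further 1 was not called, and the branch median was -0.51. The largest fall of the 42 genes was that of SCD (ENSG00000099194.6, chr10:100347124-100364834, plus strand). SCD measured 1078, 1107 and 1081 CPM in the untreated and 208, 159.7 and 143 CPM in the treated Fadu libraries. This was a fall to 0.156 of the untreated level, with no overlap, at a log2 fold change of -2.68 ± 0.16 in Fadu (adjusted p = 0.00016). FADS1, a desaturase of polyunsaturated fatty acids, measured 184, 183 and 179.7 CPM in the untreated and 85.1, 79.6 and 71.9 CPM in the treated Fadu libraries. ACACB, the acetyl-CoA carboxylase of the mitochondrial surface, measured 12.6, 13.9 and 13.7 CPM in the untreated and 6.33, 5.30 and 5.97 CPM in the treated Fadu libraries. The groups of both were apart, at -1.21 ± 0.04 for FADS1 (adjusted p = 1.07e-38) and -1.20 ± 0.11 for ACACB (adjusted p = 3.73e-16), the latter at only 1.17 TPM when untreated.

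FASN (ENSG00000169710.9, chr17:82078333-82098332, minus strand), the fatty acid synthase, measured 1394, 1349.9 and 1358 CPM in the untreated and 917, 849 and 890.0 CPM in the treated Fadu libraries. ACACA, the cytosolic acetyl-CoA carboxylase that commits carbon to fatty acids, measured 377, 364 and 374 CPM in the untreated and 215, 212 and 199 CPM in the treated Fadu libraries. ACLY, which makes cytosolic acetyl-CoA from citrate, measured 285, 285 and 283 CPM in the untreated and 263, 262 and 259 CPM in the treated Fadu libraries. All 3 fell with no overlap, ACLY by the least. The log2 fold changes were -0.63 ± 0.03 for FASN (adjusted p = 8.28e-36), -0.83 ± 0.03 for ACACA (adjusted p = 2.4e-39) and -0.12 ± 0.03 for ACLY (adjusted p = 0.0011), and that of ACLY was not called when only library size was used (-0.02) or a gene length trend was removed (-0.06). ACSS2, which activates acetate, ACSL1 and ACSL3, which activate long-chain fatty acids, ELOVL5, FADS2 and FADS3 fell as well, at -0.20 to -0.89. ELOVL1, an elongase of very long saturated chains, rose from 90.6, 89.5 and 92.9 to 126, 122 and 116 CPM (0.41 ± 0.04, adjusted p = 1.02e-14), and ELOVL6 and ACSL4 rose too. The summed level of the branch was 2306 to 2326 TPM in the untreated and 1266 to 1359 TPM in the treated libraries. SCD and FASN made up 74.4% to 74.8% of it before and 54.4% to 56.4% after treatment. FADS1 and FADS2 overlap on opposite strands, so their reads cannot be told apart without strand. FADS2 also shares exons with FEN1 on the same strand, so its reads are uncertain.

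In Hth83 7 of the 16 fatty acid genes rose (against 25.9% of all genes), 4 fell (against 24.2%) and 5 were not called (median 0.03). The falls lie near the share of all genes. FASN measured 442, 439 and 382 CPM in the untreated and 762.4, 745 and 653 CPM in the treated Hth83 libraries. ELOVL6, which elongates palmitate toward stearate, measured 14.5, 17.1 and 13.5 CPM in the untreated and 32.1, 34.6 and 37.4 CPM in the treated Hth83 libraries. SCD5, a second stearoyl desaturase, measured 12.5, 11.4 and 10.2 CPM in the untreated and 20.1, 19.0 and 17.9 CPM in the treated Hth83 libraries. The treated libraries were above the untreated ones for all 3. The log2 fold changes were 0.77 ± 0.06 for FASN (adjusted p = 3.61e-09), 1.21 ± 0.09 for ELOVL6 (adjusted p = 1.42e-12) and 0.74 ± 0.10 for SCD5 (adjusted p = 2.27e-07). ACLY rose from 117, 118 and 119 to 193, 176 and 177 CPM (0.63 ± 0.05, adjusted p = 3.91e-12) and ACACA from 126, 124 and 114 to 158, 164 and 159 CPM (0.40 ± 0.05, adjusted p = 4.59e-08). ACACB (1.24) and ACSL4 (0.36) rose as well. SCD did not pass the test: it was at 1261, 1270.1 and 1265 CPM untreated and 1319, 1324 and 1170.3 CPM treated, which overlap (0.01 ± 0.04, adjusted p = 0.917). ACSS2 (-0.41 ± 0.07), FADS3 (-0.44 ± 0.05), FADS2 and ACSL1 fell, and ELOVL1, ELOVL5, FADS1 and ACSL3 were not called.

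In Cal27 8 fatty acid genes rose (against 21.9% of all genes), 2 fell (against 23.2%) and 6 were not called (median 0.13). The median was 0.01 with a gene length trend removed and 0.28 to 0.36 on the 3 TPM fits. The largest changes were falls of FADS3, a desaturase of sphingoid bases, and ELOVL1. FADS3 measured 267, 259 and 253 CPM in the untreated and 173, 171 and 169.6 CPM in the treated Cal27 libraries. ELOVL1 measured 131, 136 and 133 CPM in the untreated and 98.2, 101 and 102 CPM in the treated Cal27 libraries. FADS1 rose and measured 73.9, 73.6 and 78.4 CPM in the untreated and 95.3, 97.5 and 95.1 CPM in the treated Cal27 libraries. No groups overlapped, and the log2 fold changes were -0.60 ± 0.04 for FADS3 (adjusted p = 1.06e-14), -0.41 ± 0.04 for ELOVL1 (adjusted p = 1.1e-09) and 0.35 ± 0.05 for FADS1 (adjusted p = 1.92e-07). SCD rose from 124, 121 and 115 to 142, 143 and 134 CPM (0.22 ± 0.04, adjusted p = 5.87e-05). ACLY (0.19), ACACA (0.15), ELOVL5 (0.26), ELOVL6 (0.14), ACSL3 (0.12) and ACSL4 (0.34) were also called higher, ACACA in 14 of 18 alternatives. With the length trend removed ACACA (0.01), ACSL3 (0.003) and ELOVL6 (-0.01) were not called. FASN, at 390.5, 404 and 390.2 and 423, 407 and 396 CPM, overlapped and was not called (0.05 ± 0.03, adjusted p = 0.256). It was called higher with the length trend removed (0.11) and on the TPM scales (0.28). ACSS2 was not called and turned upward on the TPM scales.

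In A375 4 fatty acid genes rose, 5 fell and 7 were not called (median -0.05, and 0.01 with a gene length trend removed), close to the 25.7% and 24.8% of all genes called higher and lower. ACACB measured 17.2, 20.1 and 19.1 CPM in the untreated and 12.0, 12.8 and 13.1 CPM in the treated A375 libraries. ACSS2 measured 100.4, 94.6 and 98.5 CPM in the untreated and 69.8, 78.7 and 70.6 CPM in the treated A375 libraries. ELOVL6 measured 63.2, 61.8 and 58.1 CPM in the untreated and 83.5, 86.0 and 86.9 CPM in the treated A375 libraries. The groups were separate for each, at -0.57 ± 0.09 for ACACB (adjusted p = 2.19e-06), -0.42 ± 0.05 for ACSS2 (adjusted p = 1.15e-08) and 0.48 ± 0.05 for ELOVL6 (adjusted p = 5.24e-10). FADS1 fell (-0.36) while FADS2, its neighbour, rose (0.34), ELOVL1 rose (0.30), and ACSL4 fell (-0.28). ACACA was called lower (-0.15, adjusted p = 0.0115) and turned to 0.03 with the length trend removed, and kept its call in 11 of 18 alternatives, losing it without untreated library 2 or 3 or treated library 1 (adjusted p = 0.0554, 0.0922 and 0.116). FASN was called higher by 0.11 and kept its call in 12 of 18, losing it with library size only (adjusted p = 0.350), in the joint fit (0.158), on the TPM scales (0.765 to 0.806) and with the length trend removed (0.0582). SCD was at 594, 602 and 580.0 CPM untreated and 432, 543 and 566 CPM treated. These do not overlap, but the first treated library stood below the other two and the change was not called (-0.20 ± 0.11, adjusted p = 0.219). Without that library it was called at -0.09 (adjusted p = 0.0192), as it was without robust dispersion (adjusted p = 0.00411), and the alternatives ranged from 0.00411 to 0.402.

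ELOVL6 (chr4:110045846-110199199, minus strand) was the 1 gene of the 44 called higher in all 4 lines, against 1.35% of all genes tested in each. In Fadu it went from 20.4, 20.8 and 19.4 to 27.5, 31.2 and 28.3 CPM (0.52 ± 0.08, adjusted p = 6.12e-09). In Cal27 it went from 51.9, 50.9 and 50.7 to 52.1, 58.4 and 58.5 CPM (0.14 ± 0.06, adjusted p = 0.0458). Its groups did not overlap in any line. The Cal27 value is the weakest: it kept its call in 8 of 18 alternatives, turned to -0.01 with a gene length trend removed, and had an adjusted p of 0.00179 to 0.893 over the alternatives. The size of the rise differed between lines (interaction adjusted p = 4.44e-12).

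The 2 enzymes that add the last fatty acid to triglyceride, DGAT1 and DGAT2, were named with their values known. DGAT2 rose in Hth83 from 3.61, 2.38 and 3.57 to 12.7, 11.5 and 12.4 CPM, the largest rise of the 42 genes there, at a log2 fold change of 1.94 ± 0.15 in Hth83 (adjusted p = 2.56e-12). It fell in Cal27, from 24.6, 27.1 and 25.9 to 18.7, 18.9 and 19.9 CPM (-0.43 ± 0.08, adjusted p = 1.68e-05). Neither comparison overlapped. DGAT1 fell in Hth83 (-0.32, not called on the TPM scales, adjusted p = 0.114 to 0.208) and in Cal27 (-0.21, turning to 0.02 on the TPM scales), and neither gene was called in A375 or Fadu.

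The sterol and fatty acid branches were then set against each other within each line. The median log2 fold change of the sterol branch minus that of the fatty acid branch was 0.33 in Hth83, 0.17 in A375, -0.16 in Fadu and -0.24 in Cal27. These are descriptions of lists and carry no test. The SD of this difference was 0.0601, 0.0163, 0.0447 and 0.0550 in the same order. It pools the spread among the untreated and among the treated libraries of a line. By library, the sterol median of Hth83 lay at 0.43, 0.37 and 0.30 above the untreated mean and the fatty acid median at 0.08, 0.02 and 0.09. In Fadu the sterol median lay at -0.60, -0.67 and -0.70 and the fatty acid median at -0.52, -0.53 and -0.50. Both branches lay below all untreated libraries in Fadu and above them in Hth83, where the fatty acid branch lay above by less. The Fadu difference was -0.0947 without the third treated library and -0.0444 on log2(TPM + 0.1), and with a gene length trend removed that of Cal27 was -0.0857 and that of A375 was 0.0806.

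**Figure D4:**
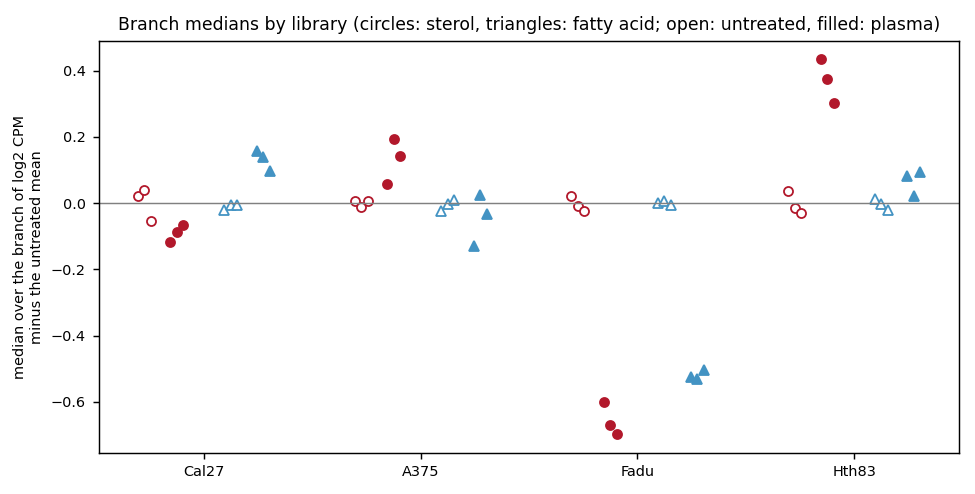
Median over the sterol branch (circles) and the fatty acid branch (triangles) of log2 CPM minus the mean of the untreated libraries, 1 point a library, open for untreated and filled for treated. Both branches lie between -0.70 and -0.50 in treated Fadu, and the sterol branch lies at 0.30 to 0.43 in treated Hth83. In Cal27 the branches part in opposite directions, and the sterol median changes sign on the TPM scale. The fatty acid median fold change of Cal27 was 0.01 with a gene length trend removed. In A375 the treated sterol medians lie above 0, while the treated fatty acid medians lie on both sides of it (-0.13, 0.02 and -0.03).

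Whether a gene's change differed between lines was tested in a joint fit of the 24 libraries. The line by treatment interaction was called for 41 of the 42 genes, against 56.9% of all genes tested, and TM7SF2 was the exception. The count was 39 to 40 when the libraries of a replicate number were left out of every group at once. HMGCS1 (interaction adjusted p = 1.76e-28), IDI1 (5.01e-24), FADS1 (1.07e-23) and FASN (3.89e-21) had the smallest values among the named genes. Of the 42, 27 were called higher in at least 1 line and lower in at least 1 other, against 44.5% of the genes tested in all 4 lines.

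Fadu and Hth83 went in opposite directions for many of the genes, a pair chosen after the values were seen. 14 genes fell in Fadu and rose in Hth83, against 8.12% of the genes tested in both: INSIG1, the sterol enzymes ACAT2, HMGCS1, MVK, IDI1, FDFT1, SQLE, LSS, MSMO1 and DHCR7, and the fatty acid genes ACLY, ACACA, ACACB and FASN. These include 9 of the 18 sterol enzymes and 4 of the 16 tested fatty acid genes. Another 9 fell in both lines, against 9.98% of all genes: SREBF1, SREBF2, INSIG2, STARD4, TM7SF2, ACSS2, FADS2, FADS3 and ACSL1, of which SREBF1, SREBF2 and TM7SF2 were not called in Hth83 on the TPM scales. EBP, ELOVL6 and ACSL4 rose in both, against 10.9% of all genes, and 0 of the 42 rose in Fadu and fell in Hth83, against 6.4%. Of the 14 opposed genes 10 had a promoter window, and all 10 held a CCAAT box in at least 1 window. So did 30 of the 38 pathway genes with a window, and 10846 of all 27305 genes with a window. Some genes have several windows, which raises such counts. Of the 9 genes lower in both lines 7 held a CCAAT box. GGGCGG was in all 10 and in all 9. A link of these motifs to the direction of change was not tested. The match to TCACNCCAC was in 0 of the 10 and in 2 of the 9.

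Further genes of the pathway, in 3 lists, were counted in the same fits. Among 10 partners that cleave, stabilise or degrade SREBPs, 1 rose and 7 fell of 10 tested in Fadu (median -0.35), 5 rose and 0 fell of 10 tested in Cal27 (median 0.18), 2 rose and 2 fell of 10 tested in A375 (median -0.02) and 3 rose and 3 fell of 10 tested in Hth83 (median 0.03). The shares of all genes called higher and lower were 26.3% and 27% in Fadu, 21.9% and 23.2% in Cal27, 25.7% and 24.8% in A375 and 25.9% and 24.2% in Hth83, and the A375 and Hth83 counts lie near them. TRIB1 fell by 0.51 on the log2 scale in Fadu. SPRING1, which SREBP cleavage needs, rose in A375 (0.63 ± 0.05) and Hth83 (0.34 ± 0.07), and the proteases MBTPS2 (0.41 ± 0.07) and MBTPS1 (0.22 ± 0.04) rose in Cal27.

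For liver X receptors and the genes of sterol efflux, storage and lysosomal export, 1 rose and 7 fell of 9 tested in Fadu (median -0.33), 1 rose and 4 fell of 10 tested in Cal27 (median -0.05), 2 rose and 5 fell of 11 tested in A375 (median -0.05) and 4 rose and 4 fell of 9 tested in Hth83 (median 0.08). Set against all genes, the share of falls is above 27% in Fadu, 23.2% in Cal27, 24.8% in A375 and 24.2% in Hth83. The share of rises is above 25.9% in Hth83 and below that of all genes in the other lines. ABCG1, a sterol exporter and liver X receptor target, fell in Hth83 from a mean of 91.4 to 23.9 CPM (-1.94 ± 0.07) and in Cal27 from 4.66 to 1.30 CPM (-1.83 ± 0.22). NPC1, the lysosomal sterol exporter, fell in Hth83 (-0.56 ± 0.05) and A375 (-0.39 ± 0.04), and LIPA, the lysosomal lipase, fell in Fadu (-0.83 ± 0.06). For 17 other lipogenic and glycerolipid genes, 3 rose and 9 fell of 17 tested in Fadu (median -0.14), 6 rose and 5 fell of 16 tested in Cal27 (median 0.11), 6 rose and 3 fell of 17 tested in A375 (median 0.06) and 6 rose and 3 fell of 16 tested in Hth83 (median 0.09). In A375 and Hth83 the rises of this list lie above the shares of all genes (25.7% and 25.9%). The falls lie below them (24.8% and 24.2%), both by few genes. ME1, the malic enzyme that supplies NADPH, fell in Fadu (-0.86 ± 0.05). SLC25A1, the mitochondrial citrate carrier, fell in Fadu (-0.67 ± 0.06) and Cal27 (-0.48 ± 0.05) and rose in Hth83 (0.52 ± 0.06), as ACLY and FASN did in Fadu and Hth83.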

How the data were processed

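Counts per gene and TPM were deposited by the authors in 1 table per line. The submitters' processing notes name HISAT2 and the build GRCh38. A counting tool, an annotation release and the use of strand: not given in the sources used here. The deposited TPM equalled counts over gene length, rescaled per library. Symbols came from a list of gene names matched on Ensembl identifiers without version, which named 61415 of 61533 genes. A GENCODE 29 annotation, matched in the same way, gave the gene coordinates (GRCh38) and the exon overlaps.

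In each line genes passed filterByExpr (minimum count 10, minimum total 15), were scaled by TMM and tested with the edgeR 4.0.16 quasi-likelihood test in R 4.3.3 with robust dispersion. P-values were adjusted by Benjamini-Hochberg over all genes tested, with a threshold of 0.05. Fold changes are given ± SE. CPM are scaled by TMM. A joint fit of 24 libraries tested the interaction. Alternatives were DESeq2 1.42.0, limma 3.58.1 on log2 TPM, other scalings and filters, a gene length trend, a replicate block and leaving out each library. In the joint fit each replicate number was left out of all groups instead. The fits were tested on simulated data. Genes with values per library were the 3 largest changes of each branch and line that were called, at 10 CPM or more and without overlap, plus SREBF1, SREBF2, INSIG1, HMGCS1, SQLE, ACLY, ACACA, FASN and SCD; other genes named are said to be so or given by value alone. Members and lists were chosen with earlier results of these data known.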

Additional observations from a re-analysis of the deposited data

Results flagged for a closer look

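For 22 of the named genes the change after plasma differed between the 4 lines, by the line by treatment interaction of the joint edgeR fit with Benjamini-Hochberg adjustment, and the adjusted p follows each gene. Among the regulators these were SREBF1 (9.81e-15), SREBF2 (1.84e-19) and INSIG1 (3.68e-14). In the sterol branch they were HMGCS1 (1.76e-28), MVK (3.46e-13), IDI1 (5.01e-24), SQLE (3.2e-20), LSS (5.54e-21), MSMO1 (1.21e-14), NSDHL (1.05e-05) and EBP (2.82e-08). In the fatty acid branch they were ACLY (2.89e-16), ACSS2 (7.42e-08), ACACA (1.28e-17), ACACB (7.9e-16), FASN (3.89e-21), SCD (3.11e-11), SCD5 (0.000127), ELOVL1 (5.64e-15), ELOVL6 (4.44e-12), FADS1 (1.07e-23) and FADS3 (1.56e-12). Such a difference was common among all genes tested, at 56.9%.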

How the results depend on the processing

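Counts and branch medians moved mainly with the scale and with gene length. The number of the 42 genes called lower in Cal27 was 8 with library size only and 4 in each of the 3 limma fits on log2 TPM. In A375 the number called higher was 7 on log2(TPM + 1) and 5 on it without a filter. In Fadu 7 were called higher with library size only. In Hth83 the number called lower was 6, 6 and 5 on log2(TPM + 1), log2(TPM + 0.1) and log2(TPM + 1) without a filter. The sterol minus fatty acid median of Cal27 was -0.163 on unfiltered TPM and -0.0857 with a gene length trend removed. That of A375 was 0.155 without a low-count filter, 0.146, 0.151 and 0.137 on the 3 TPM scales, and 0.0806 with the length trend removed. In Fadu it was -0.110, -0.0444 and -0.221 on the TPM scales and -0.208 with the length trend removed. Leaving out 1 library gave 0.153 to 0.213 in A375 and -0.195 to -0.0947 in Fadu. The cause of these shifts was not tested.

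Directions turned in Cal27 on the TPM scales, where the median of all genes was 0.20 on log2(TPM + 1) and 0.23 on log2(TPM + 0.1). The sterol median became 0.12 and 0.13, or -0.08 and -0.10 relative to all genes. Values on log2(TPM + 1), with or without a filter, and on log2(TPM + 0.1) were 0.21 and 0.21 for SREBF2, 0.0606 and 0.0666 for SCAP, 0.0332 and 0.0338 for FDPS, 0.13 and 0.14 for FDFT1, 0.18 and 0.19 for LSS, 0.19 and 0.20 for DHCR7, 0.16 and 0.17 for ACSS2, 0.0228 and 0.0235 for DGAT1, and 0.0199 and 0.0211 for DHDDS of the isoprenoid branch. With the length trend removed ELOVL6 turned to -0.0115 in Cal27, and in A375 ACACA turned to 0.0342 and the fatty acid median to 0.00712. The fatty acid median of Cal27 was 0.00789 on the same fit. All genes called without a TPM filter numbered 5772 in A375, 6718 in Fadu and 5766 in Hth83, where more genes were tested.

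Deviations of same-numbered libraries correlated at -0.0267 to 0.0421. Whether libraries of the same number share a culture or batch cannot be settled from these correlations. With the replicate block 13 genes rose and 12 fell in Cal27, 12 and 12 in A375, 4 and 32 in Fadu, and 22 and 10 in Hth83. The libraries that correlated best with their own number were 1, 2, 3 and 1 of 3 treated ones in Cal27, A375, Fadu and Hth83. Low levels limit CYP51A1, ACACB and SCD5. Among others, SREBF1 (RAI1), ACAT2 (SOD2 and TCP1) and DGAT1 (HSF1) share exons with opposite-strand genes, and FDPS has 8 named pseudogenes.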

Other observations

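Genes that draw on the sterol branch without making sterol, and genes that burn fatty acids, were counted in the same edgeR fits. In the isoprenoid side branch, which makes dolichol, ubiquinone and protein prenyl groups, 6 rose and 0 fell of 12 tested in A375 (median 0.22), 1 rose and 3 fell of 12 tested in Cal27 (median -0.03), 3 rose and 4 fell of 12 tested in Fadu (median -0.09) and 3 rose and 5 fell of 12 tested in Hth83 (median -0.04). The shares of all genes called higher and lower in these fits were 26.3% and 27% in Fadu, 21.9% and 23.2% in Cal27, 25.7% and 24.8% in A375 and 25.9% and 24.2% in Hth83, and the Fadu count lies near them. ICMT, which methylates prenylated proteins, rose in Hth83 from a mean of 104 to 191 CPM (0.88 ± 0.05) and in A375 (0.52 ± 0.04). NUS1, a subunit of the dolichol synthase, rose in A375 (0.44 ± 0.05) and fell in Fadu (-0.41 ± 0.04) and Hth83 (-0.56 ± 0.05). PDSS1, which makes the ubiquinone tail, rose in Fadu from a mean of 8.11 to 16.2 CPM (0.998 ± 0.10), in the line where most sterol enzymes fell.

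In fatty acid oxidation 1 rose and 7 fell of 15 tested in Cal27 (median -0.09), 5 rose and 4 fell of 16 tested in A375 (median 0.03), 5 rose and 8 fell of 16 tested in Fadu (median -0.16) and 7 rose and 2 fell of 15 tested in Hth83 (median 0.19). Beside the same shares of all genes, the A375 count lies near 25.7% and 24.8%. CPT1A, which admits long-chain fatty acids to mitochondria, rose in Cal27 (0.76 ± 0.05) and Hth83 (0.74 ± 0.06). ACADVL, the very long-chain acyl-CoA dehydrogenase, rose in Fadu from a mean of 275 to 414 CPM (0.59 ± 0.03), while HADHB fell there (-0.49 ± 0.04). ECHS1, an enoyl-CoA hydratase, fell in Cal27 (-0.41 ± 0.05) and rose in A375 (0.31 ± 0.04).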
